A study of Mus musculus with 6 samples.

Results

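The genes described here are those with which liver cells make, take up, move and store cholesterol, together with the SREBP2 system that sets their level. They come from a list of 31 genes put together by function, with earlier results of these data known. It holds 17 enzymes of cholesterol synthesis and 14 genes of regulation, transport, esterification and lipoprotein handling. A gene was measured if it had a probe set that the platform annotation gives to that gene alone, and where it had several, the brightest on average over the 6 arrays was used. This held for 26 of the 31 genes (15 enzymes and 11 others), out of 17097 genes in all. Acat2, Pmvk, Soat1, Soat2 and Lipc had no such probe set and were not analysed here.

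RNA came from the remnant liver of C57Bl/6 mice taken 12 h after 70% partial hepatectomy, an operation after which the liver regrows. The groups are 3 wildtype mice and 3 labelled DeltaKlf6, in which the zinc-finger transcription factor Klf6 was deleted in hepatocytes. All 6 mice had the operation, so there is no unoperated liver. Each array is 1 animal, out of 6 per group in the overall study. The labels give neither the Cre line nor the age or sex of the animals. Whole liver was used, so cells that keep Klf6 also contributed RNA. Fewer cells of a type and less RNA per cell cannot be told apart in such samples. Values are log2 expression; a difference of 1 is a doubling.

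Cholesterol is built from acetyl-CoA through mevalonate and squalene to the sterol ring, almost entirely by enzymes of the endoplasmic reticulum and cytosol. When sterols in the endoplasmic reticulum are low, SCAP escorts the precursor of SREBP2 to the Golgi, where it is cut, and the released factor switches on the genes of synthesis and uptake. When sterols are high, INSIG proteins hold SCAP back. The liver is the main organ that clears cholesterol-rich lipoproteins from blood and turns their cholesterol into bile acids.

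The binding sites named for this system were looked for in the promoters, since the results concern whether these genes moved together. RefSeq promoter windows (GRCm38.p6, 250 bases before the start and 50 from it) were given for 24 of the 31 genes. Among these windows the sterol regulatory element TCACNCCAC was found, on either strand, in 1 gene, Hmgcs1. It was found in 1.5% of the 13605 array genes that have a window. Only these letters, with any base at N, were searched for, so other forms of the element would be missed. The CCAAT box, bound by NF-Y, a common partner of SREBP2, was found in 13 of 14 synthesis genes and in 8 of 10 other genes (CCAAT, either strand), beside 42.3% of array genes. The GC box GGGCGG, of the kind that Sp and KLF factors bind, was in 13 of 14 and 9 of 10 (57.3% of array genes), and the shorter CACCC box in 10 of 14 and 8 of 10 (66.2%). The CACCC letters can lie inside the sterol element, as they do in Hmgcs1. These are matches of letters in a short window and do not show binding.

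The promoters of 4 genes are printed for the genes on which the results below turn, with the sterol element and the CCAAT boxes in capitals (a CCAAT box on the other strand reads ATTGG). Hmgcs1 is shown as the 1 match to the sterol element, Insig1 as a regulator that is itself a known SREBP2 target, Lss as the enzyme with the lowest group difference and Mylip as the regulator with the lowest. All are on the plus strand: Hmgcs1 at chr13:119690101-119690400, Insig1 at chr5:28071162-28071461, Lss at chr10:76531355-76531654 and Mylip at chr13:45389492-45389791.
Hmgcs1: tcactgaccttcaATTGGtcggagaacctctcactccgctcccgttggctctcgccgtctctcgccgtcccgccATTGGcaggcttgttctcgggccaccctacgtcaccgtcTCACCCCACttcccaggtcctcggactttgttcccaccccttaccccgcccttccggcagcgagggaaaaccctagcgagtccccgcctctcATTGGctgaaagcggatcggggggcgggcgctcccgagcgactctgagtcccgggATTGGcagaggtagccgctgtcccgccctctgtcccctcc
Insig1: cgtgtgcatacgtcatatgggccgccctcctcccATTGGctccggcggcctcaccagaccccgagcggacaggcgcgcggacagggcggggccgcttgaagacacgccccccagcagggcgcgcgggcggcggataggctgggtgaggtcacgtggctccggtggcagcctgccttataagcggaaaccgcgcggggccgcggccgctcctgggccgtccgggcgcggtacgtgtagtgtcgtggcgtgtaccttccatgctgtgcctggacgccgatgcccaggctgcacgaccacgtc
Lss: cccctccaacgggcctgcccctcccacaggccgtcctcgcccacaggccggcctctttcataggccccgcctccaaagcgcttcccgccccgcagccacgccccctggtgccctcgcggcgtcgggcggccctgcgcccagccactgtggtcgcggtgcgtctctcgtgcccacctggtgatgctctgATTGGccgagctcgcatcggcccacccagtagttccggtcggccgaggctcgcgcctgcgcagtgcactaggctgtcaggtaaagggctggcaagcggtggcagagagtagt
Mylip: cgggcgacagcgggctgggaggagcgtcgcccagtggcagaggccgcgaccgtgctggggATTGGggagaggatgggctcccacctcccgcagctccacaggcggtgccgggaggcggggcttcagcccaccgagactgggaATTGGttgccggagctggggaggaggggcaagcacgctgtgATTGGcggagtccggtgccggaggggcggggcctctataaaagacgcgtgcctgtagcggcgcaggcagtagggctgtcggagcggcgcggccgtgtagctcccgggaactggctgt
In Hmgcs1 the sterol element TCACCCCAC lies at -137 to -129, counting the first base of the start as 0, between CCAAT boxes at -176 to -172 and -45 to -41. Mylip has 3 CCAAT boxes and 1 GC box in its window, and Lss and Insig1 have 1 CCAAT box each.

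The check of the targeted gene and of the libraries comes first, because it touches every result. Klf6 was measured by 3 probe sets, and in the library labelled DeltaKlf6 1 it lay above the wildtype mean by 2.13, 1.82 and 2.12; in DeltaKlf6 2 and 3 it differed by between -1.75 and 0.05. Klf6 thus went against the label in DeltaKlf6 1. By the probe set of highest mean, DeltaKlf6 2 was inside the wildtype range (4.61, wildtype 4.43 to 5.20) and DeltaKlf6 3 below it (3.15). By another probe set both were inside it (4.12 and 3.74, wildtype 3.73 to 4.44). By the remaining one both were below it (2.82 and 2.83, wildtype 3.41 to 4.03). The group difference was positive by each probe set (0.13, 0.52 and 0.02). Directions below are between libraries as labelled. Whether the probe sets lie in the deleted part of the gene is not known here. Hepatocyte markers were high throughout (Alb, the serum albumin gene, 12.5 to 13.3). The upper quartile of all values was 5.08 in DeltaKlf6 3 and 5.50 to 5.63 in the other 5 arrays. The Gapdh control, read at both ends of the transcript, had a 3'-minus-5' signal of 4.06 to 4.43 in wildtype. All 3 DeltaKlf6 libraries lay outside that range, with 3.47, 3.45 and 4.83. For the actin control DeltaKlf6 1 and 2 (4.223 and 3.998) were again below the wildtype range of 4.86 to 5.39. DeltaKlf6 3 (5.05) was inside it. The actin signal of the middle minus the 5' end was 0.13 in DeltaKlf6 3, below the wildtype range of 1.26 to 1.86. It was 1.69 and 1.79 in DeltaKlf6 1 and 2, inside that range.

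No cholesterol gene passed the test between DeltaKlf6 and wildtype. Of 26 genes 12 were higher and 14 lower by group mean, beside 48.4% higher and 51.6% lower of all 17097 genes. Their median difference was -0.003, beside -0.01 over all genes. By limma's moderated test at an adjusted p of 0.05, 0 members and 0 genes in all were called (0.0%). At an unadjusted p under 0.05, 3 members were lower (2.48% of all genes) and 0 higher (1.21%): Stard4, Npc1 and Mylip. A difference of at least 1.5-fold was reached by 4 lower members (5.11% of all genes) and 2 higher members (3.28%). The plot of group differences shows these 6 genes, which are Lss, Npc1, Stard4 and Mylip on the lower side and Hmgcs1 and Fdps on the higher side.

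**Figure D1:**
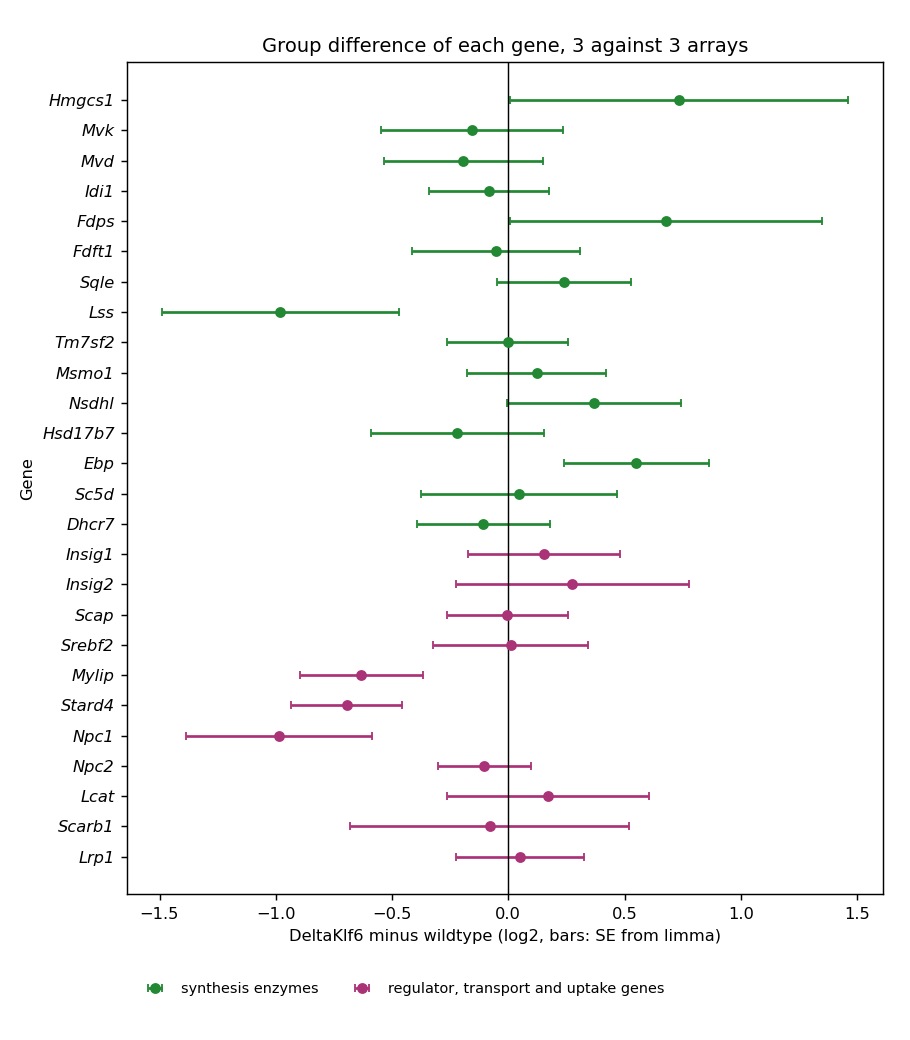
Difference between DeltaKlf6 and wildtype for each of 26 cholesterol genes (x axis, log2; y axis, gene), with the limma standard error as bar; green marks 15 synthesis enzymes and purple 11 regulator, transport and uptake genes. The lowest values are -0.99 for Npc1 and -0.98 for Lss and the highest 0.74 for Hmgcs1, with bars that are wide in these genes.

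The synthesis enzymes lay on opposite sides of wildtype in different DeltaKlf6 libraries. The mean of the 15 enzymes, taken relative to wildtype, was 0.24, -0.06 and -0.18 in wildtype 1, 2 and 3. It was 0.20 in the library labelled DeltaKlf6 1, 0.58 in DeltaKlf6 2 and -0.59 in DeltaKlf6 3. DeltaKlf6 2 was thus above and DeltaKlf6 3 below all wildtype arrays, while DeltaKlf6 1 lay inside their range (7 enzymes above every wildtype array, beside 29.0% of all genes, and 4 below, beside 30.9%). In DeltaKlf6 2, 10 of 15 enzymes lay above every wildtype array, beside 28.0% of all genes and 34.5% of the 10795 genes whose mean is over the median of all values. In DeltaKlf6 3, 12 of 15 lay below every wildtype array, beside 35.1% of all genes and 45.7% of those brighter genes. The mean over the brighter genes, relative to wildtype, was -0.01, 0.09 and -0.24 in DeltaKlf6 1, 2 and 3. Over all genes it was -0.01, 0.04 and -0.08. DeltaKlf6 2 held the highest of the 6 values for 9 enzymes (18.3% of all genes) and DeltaKlf6 3 the lowest for 12 (25.6% of all genes). The group mean difference over the enzymes was 0.06; it was 0.39 without DeltaKlf6 3, with 12 of 15 enzymes higher, and -0.19 without DeltaKlf6 2, with 11 of 15 lower.

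Other values also differed between these libraries. DeltaKlf6 3 had the low upper quartile and the highest Gapdh 3'-minus-5' signal of the 6 arrays. Its actin 3'-minus-5' signal was inside the wildtype range, but its actin middle-minus-5' signal (0.13) was below that of every wildtype array. Markers of other liver cells also differed. The mean of 5 stellate cell markers, relative to wildtype, was 0.58 in DeltaKlf6 2 and -0.73 in DeltaKlf6 3 (wildtype arrays -0.18 to 0.18). In DeltaKlf6 2, 4 of 5 lay above every wildtype array, beside 28.0% of all genes. In DeltaKlf6 3, 4 of 5 lay below, beside 35.1%. Col1a1, counted in both, was at 2.41 to 2.96, under the array medians of 3.30 to 3.45. The mean of 5 Kupffer cell markers was 0.69 in DeltaKlf6 2 and 0.00 in DeltaKlf6 3 (wildtype -0.20 to 0.11), and that of 5 sinusoidal endothelial markers -0.03 and -0.58 (wildtype -0.23 to 0.14). The 5 hepatocyte markers were at 0.33 in DeltaKlf6 2 and -0.08 in DeltaKlf6 3 (wildtype -0.05 to 0.07). They were highest in DeltaKlf6 1, at 0.52, where the enzyme mean lay inside the wildtype range. The stellate, Kupffer and endothelial means there were -0.04, 0.04 and -0.12. The endothelial median there was -0.52, with 3 of 5 markers below every wildtype array (30.9% of all genes). Lyve1 was the 1 marker above (29.0% of all genes), at 8.34 against 6.35 to 7.16 in wildtype. The part of these signals and markers in the enzyme values was not tested.

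**Figure D2:**
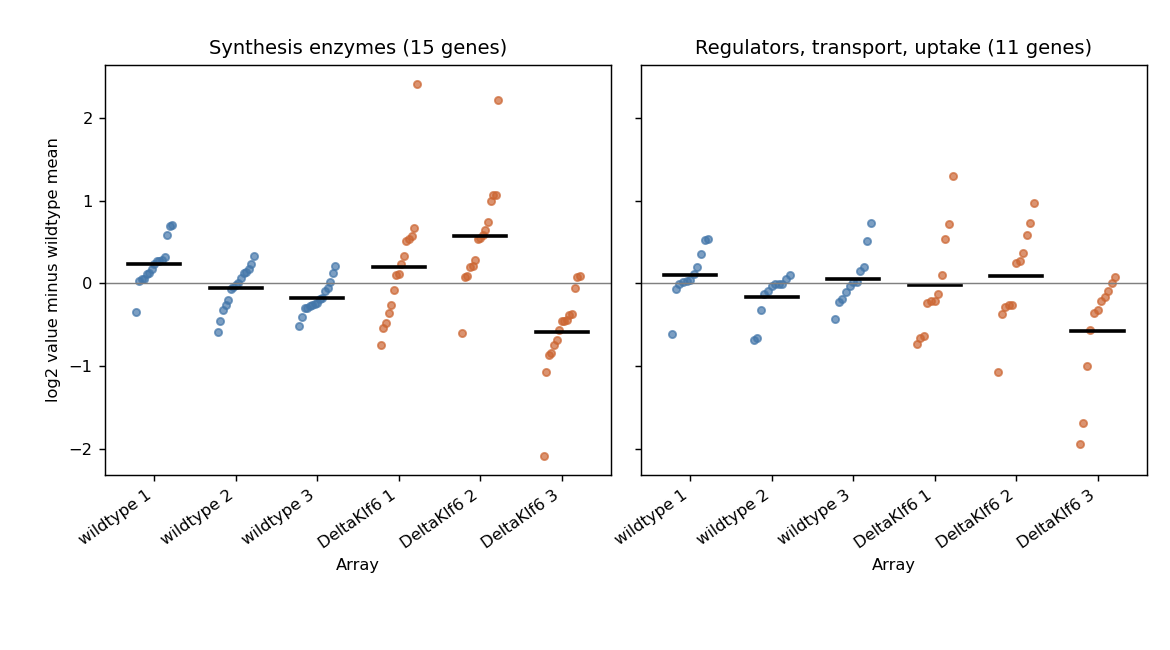
Each point is a gene in 1 array (x axis), plotted as its log2 value minus its mean over the 3 wildtype arrays (y axis), for 15 synthesis enzymes (left) and 11 regulator, transport and uptake genes (right); blue is wildtype, orange is DeltaKlf6 and the black bar is the mean over genes. The enzyme mean is 0.58 in DeltaKlf6 2 and -0.59 in DeltaKlf6 3, on either side of the wildtype arrays.

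Among the early enzymes, which lead from acetyl units to farnesyl diphosphate, Hmgcs1 and Fdps had the widest ranges. Hmgcs1, the cytosolic synthase that makes HMG-CoA, was at 4.82, 3.54 and 4.04 in wildtype 1, 2 and 3 and at 6.54, 4.67 and 3.39 in DeltaKlf6 1, 2 and 3. DeltaKlf6 1 was thus highest and DeltaKlf6 3 lowest of all 6 arrays, and the groups overlapped (4.13 ± 0.65 against 4.87 ± 1.58, mean ± SD, n = 3 each). The difference was 0.74 (SE 0.73, limma adjusted p = 0.992), and without DeltaKlf6 1 it was -0.10. Some of these values are near the array medians of 3.30 to 3.45, and detection was not assessed.

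Fdps, which joins isoprene units into farnesyl diphosphate, was at 6.03, 5.90 and 5.35 in wildtype and at 6.42, 7.97 and 4.92 in DeltaKlf6. Here DeltaKlf6 2 stood highest, by more than the whole wildtype range, and DeltaKlf6 3 lowest. Its difference of 0.68 (SE 0.67, limma adjusted p = 0.992) became -0.09 without DeltaKlf6 2. Idi1, the isomerase of the isoprene units, spanned 0.74 over all 6 arrays and differed by -0.08. Mevalonate kinase (Mvk) and mevalonate diphosphate decarboxylase (Mvd) differed by -0.16 and -0.19. For these, the second probe set of each had the other sign (0.12 and 0.17).

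Of the enzymes from squalene to cholesterol, 5 were higher and 5 lower by group mean. DeltaKlf6 2 held the highest value for 6 of these 10 enzymes and DeltaKlf6 3 the lowest for 8, beside 18.3% and 25.6% of all genes. These genes are part of the counts over 15 enzymes given above. Fdft1, squalene synthase, which commits farnesyl units to sterols, was at 9.92, 9.86 and 9.62 in wildtype and at 9.91, 10.39 and 8.94 in DeltaKlf6. Its DeltaKlf6 values lay inside, above and below the wildtype range. Squalene epoxidase (Sqle) was at 8.30, 8.11 and 8.13 in wildtype and at 8.72, 8.73 and 7.81 in DeltaKlf6, so that DeltaKlf6 1 and 2 were above and DeltaKlf6 3 below all wildtype arrays. Nsdhl, a sterol dehydrogenase, had the same arrangement, with a wildtype range of 7.82 to 8.34 and DeltaKlf6 values of 8.65, 9.06 and 7.61.

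Lanosterol synthase (Lss), which closes the sterol rings, had the lowest group difference among the enzymes. It was at 5.91, 5.01 and 4.70 in wildtype and at 4.95, 4.61 and 3.13 in DeltaKlf6. DeltaKlf6 3 was far below the rest and under its own array median of 3.45, while DeltaKlf6 1 lay inside the wildtype range. The difference was -0.98 (SE 0.51, limma adjusted p = 0.992), with a 95% confidence interval from -2.16 to 0.20, and without DeltaKlf6 3 it was -0.43.

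Ebp, a sterol isomerase, was the enzyme of the later steps with the highest difference. It was at 9.18, 9.86 and 9.54 in wildtype and at 10.03, 10.60 and 9.60 in DeltaKlf6, so DeltaKlf6 1 and 2 were above every wildtype array and DeltaKlf6 3 was among them. The difference was 0.55 (SE 0.31, limma adjusted p = 0.992), with an interval from -0.17 to 1.27. It was 1 of 2 enzymes above the wildtype mean in DeltaKlf6 3, by 0.07, the other being Mvd, by 0.08. By its second probe set, however, Mvd was at 3.91 in DeltaKlf6 3, below every wildtype array (4.23 to 5.18).

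For the remaining later enzymes the group differences were 0.12 for the methyl sterol oxidase Msmo1, -0.002 for the sterol reductase Tm7sf2, -0.22 for the ketosteroid reductase Hsd17b7, 0.05 for the desaturase Sc5d and -0.11 for Dhcr7, the reductase of a final step. The 95% confidence interval was -1.08 to 0.64 for Hsd17b7 and -0.93 to 1.02 for Sc5d. Sc5d was again highest in DeltaKlf6 2 (10.84) and lowest in DeltaKlf6 3 (9.21), and lay no lower than 9.52 in any wildtype array. Its other probe sets differed by -0.68 and -0.11, the one used by 0.05.

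**Figure D3:**
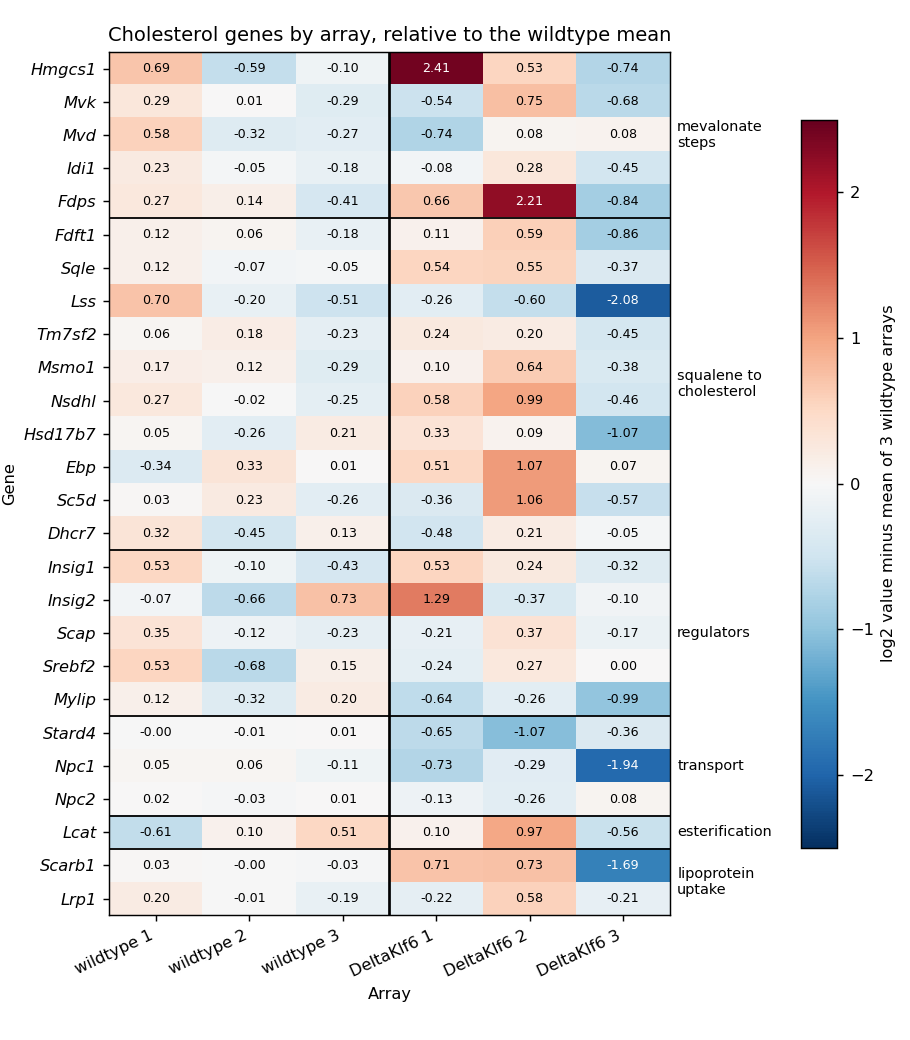
Log2 value of each of 26 cholesterol genes (rows, grouped by role) in each of 6 arrays (columns) minus the mean of the 3 wildtype arrays, printed in each cell and coloured from blue (lower) to red (higher). Among the enzymes the column of DeltaKlf6 2 is mostly red and that of DeltaKlf6 3 mostly blue; Stard4, Npc1 and Mylip are blue in all 3 DeltaKlf6 columns.

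The genes of SREBP2 and its escort were at or near the wildtype range in all 3 DeltaKlf6 libraries. Srebf2, which encodes SREBP2, was at 5.84, 4.63 and 5.46 in wildtype and at 5.07, 5.58 and 5.31 in DeltaKlf6, all inside the wildtype range. The difference was 0.01 (SE 0.33, limma adjusted p = 0.9995), with an interval from -0.76 to 0.78, so a change of that size in either direction was not excluded. Its second probe set differed by -0.33 (SE 0.24). Scap, the escort of SREBP2, was at 8.53, 8.06 and 7.95 in wildtype and 7.97, 8.55 and 8.01 in DeltaKlf6 (difference -0.004, interval -0.61 to 0.60).

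The INSIG genes, whose products retain SCAP, had their highest values in DeltaKlf6 1, for Insig1 level with wildtype 1. Insig1 was at 10.04, 9.42 and 9.09 in wildtype and 10.05, 9.76 and 9.20 in DeltaKlf6, with the groups spanning nearly the same range (difference 0.15, SE 0.33). Insig2 was at 10.71, 10.13 and 11.52 in wildtype and 12.08, 10.41 and 10.69 in DeltaKlf6. DeltaKlf6 1 exceeded the highest wildtype array and the other libraries lay among them. The difference was 0.28 (SE 0.50, limma adjusted p = 0.992), and it was -0.23 without DeltaKlf6 1. All 3 Insig2 probe sets had a positive difference (0.16, 0.28 and 0.13).

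Mylip, a ubiquitin ligase that marks lipoprotein receptors for breakdown and is induced by the sterol receptor LXR, was lower in each DeltaKlf6 library than the wildtype mean. It was at 6.86, 6.42 and 6.95 in wildtype and at 6.11, 6.48 and 5.75 in DeltaKlf6. DeltaKlf6 1 and 3 were below every wildtype array, and DeltaKlf6 2 was just above wildtype 2, so the groups overlapped. The difference was -0.63 (SE 0.27, limma adjusted p = 0.992). It lay between -0.82 and -0.45 when any 1 library was left out.

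All 3 measured genes of sterol transport inside the cell were lower by group mean. The groups did not overlap for Stard4 and Npc1, 2 of 26 members, beside 5.91% of all genes lower without overlap; 0 members were higher without overlap, beside 3.41%. Npc1, the membrane protein that exports cholesterol from lysosomes, was at 6.92, 6.93 and 6.77 in wildtype and at 6.14, 6.58 and 4.93 in DeltaKlf6. The wildtype SD was 0.091, and DeltaKlf6 3 was the lowest by more than 1 unit. The difference was -0.99 (SE 0.40, limma adjusted p = 0.992), and without DeltaKlf6 3 it was -0.51. Npc2, the soluble partner of Npc1 in the lysosome, was at 10.86, 10.81 and 10.85 in wildtype and 10.71, 10.58 and 10.92 in DeltaKlf6. Its difference of -0.10 had an interval from -0.56 to 0.36, and its other probe sets were at 0.03 and 0.07.

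Stard4, a cytosolic sterol carrier and known SREBP2 target, differed between probe sets. By the probe set used it was at 8.40, 8.39 and 8.41 in wildtype and at 7.75, 7.33 and 8.05 in DeltaKlf6. All DeltaKlf6 values were below all wildtype values, which had an SD of 0.013, and here DeltaKlf6 2 was the lowest. The difference was -0.69 (SE 0.24, limma adjusted p = 0.992). By another probe set Stard4 was at 7.999, 8.112 and 7.449 in wildtype and 7.959, 8.009 and 7.397 in DeltaKlf6, a difference of -0.07 (SE 0.27). By the remaining probe set the wildtype arrays ranged from 6.88 to 7.33; DeltaKlf6 1 was inside that range (7.32), DeltaKlf6 2 above it (7.48) and DeltaKlf6 3 below it (4.61). The plot of these genes by array shows that the separation of the groups is seen in 1 of 3 Stard4 probe sets. That probe set is of a type shared between transcripts of the gene.

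**Figure D4:**
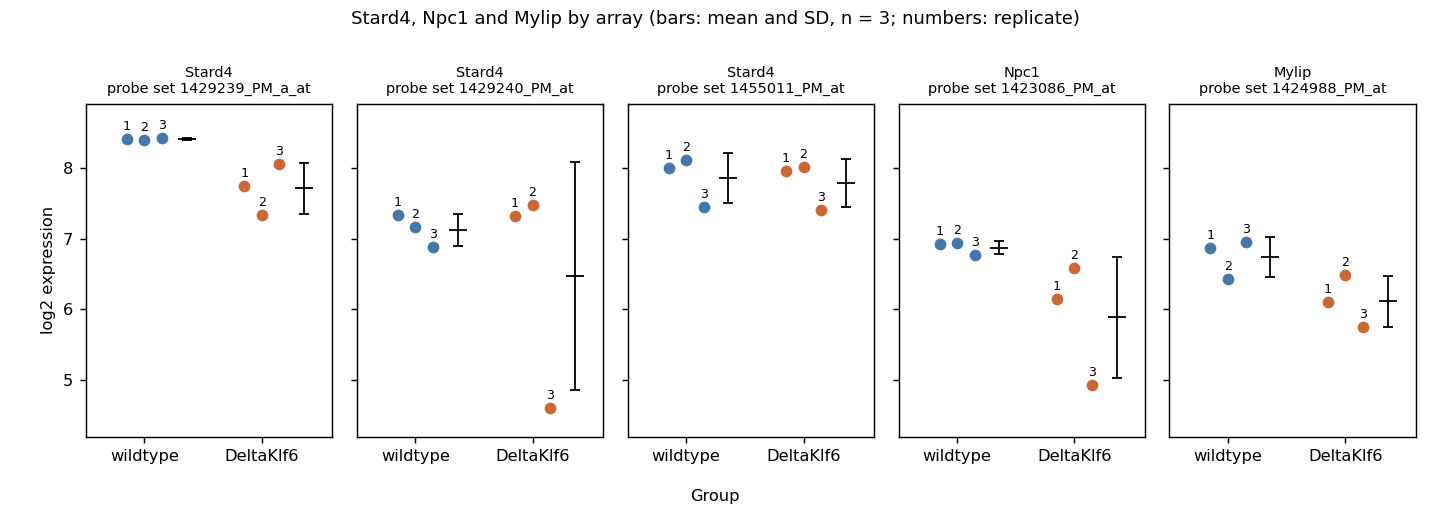
Log2 expression (y axis) of 3 Stard4 probe sets and of Npc1 and Mylip in each array, by group (x axis; blue wildtype, orange DeltaKlf6; numbers are replicates), with mean and SD (n = 3). The groups are apart for the first Stard4 probe set and for Npc1, while the Stard4 probe set in the middle panel has 7.85 as the wildtype mean and 7.79 as the DeltaKlf6 mean.

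Genes of lipoprotein handling and esterification split between libraries. Scarb1, the HDL receptor that takes up cholesteryl ester, was at 6.98, 6.95 and 6.93 in wildtype and at 7.66, 7.69 and 5.27 in DeltaKlf6. The wildtype SD was 0.027 and the DeltaKlf6 SD 1.39: DeltaKlf6 1 and 2 were above all wildtype arrays and DeltaKlf6 3 was below them. The difference was -0.08 (SE 0.60, limma adjusted p = 0.997), and without DeltaKlf6 3 it was 0.72 (limma adjusted p = 0.434). The sign also turned when the arrays were quantile-normalized again (0.03) and with array weights (0.32).

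Lrp1, a large receptor for remnant lipoproteins, was at 9.50, 9.30 and 9.12 in wildtype and 9.09, 9.89 and 9.09 in DeltaKlf6, with only DeltaKlf6 2 above wildtype (difference 0.05, SE 0.28). Its other probe set differed by -0.32 (SE 0.48). Lcat, the plasma enzyme that esterifies cholesterol on HDL, was at 8.70, 9.42 and 9.83 in wildtype and 9.42, 10.29 and 8.75 in DeltaKlf6. The groups overlapped over most of their range (difference 0.17, SE 0.44, limma adjusted p = 0.995).

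Set side by side, the enzymes had a mean difference of 0.06 and the 11 regulator, transport and uptake genes one of -0.17, with medians of -0.002 and -0.004. The gap of 0.23 between the means was about the pooled SD of that gap between replicate arrays, 0.23. Per array the enzyme mean minus the mean of the other genes was 0.13, 0.10 and -0.24 in wildtype 1, 2 and 3 and 0.22, 0.49 and -0.02 in DeltaKlf6 1, 2 and 3, so the groups overlapped. Of the 11 other genes 4 were above every wildtype array in DeltaKlf6 2 and 5 below every wildtype array in DeltaKlf6 3. The shares were 28.0% and 35.1% of all genes and 34.5% and 45.7% of the brighter genes, so both counts were near the background. Their mean in DeltaKlf6 3 was still -0.57, close to the -0.59 of the enzymes, with wildtype arrays at -0.16 to 0.10. In DeltaKlf6 2 it was 0.08. The count in DeltaKlf6 3 depended on scaling. It was 9 of 11 with arrays median-centred (42.7% of all genes) and 4 of 11 after a new quantile normalization (28.7%). The spread between arrays was wider in DeltaKlf6 for 22 of 26 members, beside 68.1% of all genes. The median ratio of the SDs was 2.18 over members and 1.51 over all genes.

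Other genes of sterol metabolism, a list of 31 of which 24 were measured, had 8 higher and 16 lower members, with 0 past the test and 0 at an unadjusted p under 0.05 by limma. The groups did not overlap for 2 of the 24, both lower, beside 5.91% of all genes lower without overlap: Erlin2, a factor in the breakdown of sterol-regulated proteins (-0.51, SE 0.23), and Fnta, a subunit of the enzymes that attach isoprenoids to proteins (-0.35, SE 0.22). In the same lists Erlin1 was at -0.35 and Pdss2, of ubiquinone synthesis, at -0.28. All 4 measured genes of sterol efflux and LXR were lower by group mean. Abcg5 and Abcg8, partner subunits that export sterols to bile, differed by -0.81 (SE 0.73) and -0.69 (SE 0.52). Abcg5 was at 8.19, 7.90 and 6.68 in wildtype and at 8.01, 7.25 and 5.09 in DeltaKlf6, so 2 of 3 libraries were inside the wildtype range. The bile acid enzymes Cyp27a1 and Cyp7b1 differed by 0.31 and 0.18, the lysosomal lipase Lipa by -0.35 and the receptor chaperone Lrpap1 by 0.23.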

How the data were processed

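Total RNA from 6 livers was labelled with a 3' IVT kit and hybridized to 1-channel Affymetrix arrays, per the labels' protocols. The deposited values are log2 expression values that the authors made with RMA; the submitters' processing notes name Expression Console 1.2.1. That the base of the logarithm is 2 was inferred from the highest value, 13.9. The authors' genome build and annotation: not given in the sources used here.

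Of 45141 probe sets 28898 had a single gene in the platform annotation, 551 several and 15692 none here. Each gene was represented by its single-gene probe set of highest mean. Groups were compared with limma 3.58.1 in R 4.3.3 (lmFit, eBayes, genotype as factor, two-sided, Benjamini-Hochberg over 17097 genes). The calculation was tested on simulated data. The number of arrays limits the precision. Each array is 1 animal, per the labels. Groups are described by counts and means without a test. Genes described in full had non-overlapping groups, a difference of at least 1.5-fold, or were among the 2 of smallest p in their role; other genes and probe sets named in addition were chosen after their values were seen. Members and lists were chosen with earlier results of these data known. Alternatives were other probe set choices, scalings, variance models, weights, the replicate number as a block and each array left out. Marker lists of cholangiocytes, neutrophils, lymphocytes and erythroid cells had mean differences of 0.15, -0.05, -0.24 and 0.21.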

Additional observations from a re-analysis of the deposited data

Results flagged for a closer look

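The hybridization controls, labelled bacterial and phage RNAs added to each sample, which stand outside the gene comparison, had a mean of 11.2 in the library labelled DeltaKlf6 3, above the wildtype arrays (10.2 to 10.3). They were at 9.92 in DeltaKlf6 1 and 9.86 in DeltaKlf6 2. DeltaKlf6 3 is also the library in which 12 of 15 synthesis enzymes lay below every wildtype array. So did 35.1% of all genes and 45.7% of the brighter genes. A link between these values was not tested.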

How the results depend on the processing

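No gene passed the adjusted threshold under any of the 14 alternatives. Genes at an unadjusted p under 0.05 numbered 631, and 401 with dim genes left out and 379 to 1546 with 1 array left out. The mean difference was -0.19 to 0.39 over the enzymes and -0.29 to 0.03 over the other genes with 1 array left out, and 0.10 to 0.36 between these means. With 1 array left out the difference was -0.10 to 1.47 for Hmgcs1, -0.088 to 1.44 for Fdps, -0.23 to 0.64 for Insig2, -0.23 to 0.54 for Lcat, -0.21 to 0.18 for Lrp1 and -0.49 to 0.72 for Scarb1. The mean of the probe sets gave -0.13 for Lrp1; for Scarb1 a new quantile normalization gave 0.035 and array weights 0.32. Lss, Ebp, Mylip, Npc1 and Stard4 kept their sign under all alternatives, and Stard4 was -0.07 without probe sets shared between transcripts. The cause of these shifts was not tested, except that the last follows from another probe set. Alternatives for the per-library counts were added after seeing the data. In DeltaKlf6 2, 8 to 10 enzymes lay above every wildtype array, beside 26.2% to 34.5% of the genes in each setting. In DeltaKlf6 3, 10 to 13 lay below, beside 28.7% to 45.7%. A new quantile normalization gave the smallest means, 0.48 and -0.42. The replicate number as a block left the count at 0 past adjustment and gave 703 at an unadjusted p under 0.05 by limma. Deviations of same-numbered arrays correlated at -0.005, 0.26 and 0.08, and those of differently numbered arrays at -0.17 to 0.09. With 3 arrays per group these values do not settle whether the numbers pair the samples. The labels name no pairing.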

Other observations

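Cyp7a1, the rate-limiting enzyme of bile acid synthesis, had 2 separate levels that did not follow the groups; it was picked after its values were seen. It was at 2.83, 8.04 and 7.59 in wildtype 1, 2 and 3 and at 3.25, 8.50 and 3.92 in the libraries labelled DeltaKlf6 1, 2 and 3. Wildtype 1 and DeltaKlf6 1 were thus at or under the array medians (3.30 to 3.45), while DeltaKlf6 2 was at the level of wildtype 2. The group difference was -0.93 (SE 1.68). Cyp8b1, which directs bile acid synthesis toward cholic acid, was lowest in DeltaKlf6 1 (5.35) and highest in DeltaKlf6 2 (9.67), against 7.71 to 8.82 in wildtype.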
